A study of Bos taurus with 12 samples.

Results

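Prepubertal heifer embryos were compared at 2 stages of culture, the 8-16-cell embryo of day 3 and the blastocyst of day 7. The comparison takes every array labelled with these 2 groups, which is 6 of the 12 arrays of the series (3 pools of 8-16-cell embryos and 3 pools of blastocysts), and every probe set that is not an array control, which is 24016 of 24128. The embryos were of Japanese Black cattle and were all made in vitro. Oocytes came from ovaries of heifers aged 9 to 12 months, removed with a spay device at several farms, were matured with their cumulus cells, fertilized with frozen-thawed semen of a Japanese Black bull and grown in CR1aa medium. A pool held 50 embryos of 8 to 16 cells, taken 70 to 72 h after insemination, or 10 expanded blastocysts that had not hatched. The other 6 arrays hold the same stages made from oocytes of adult cows. RNA of each pool was amplified and read on an Affymetrix bovine genome array, so each value is a MAS5 signal, a linear intensity per probe set. The titles number the arrays of a group as biological replicates. The labels do not say whether the pools came from different animals, bulls or culture runs, so the spread between pools may hold any of these. P-values for single genes draw mostly on a variance shared over probe sets and both donor groups. They draw little on a gene's own spread between these pools.

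An early embryo starts on RNA and protein that the oocyte stored. In cattle the embryo's own genome takes over around the 8-16-cell stage, while maternal transcripts are degraded. By the blastocyst stage the outer cells have become the trophectoderm, a transporting epithelium with tight junctions and a keratin network that pumps fluid into a cavity, and the inner cells form the inner cell mass. Mitochondria mature and respiration rises over the same days. The question that this comparison asks is which transcripts differ between these stages in embryos of young donors.

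The 8-16-cell array of replicate 3 stood apart, so counts of calls are given with and without it. For single genes the difference without it is given where it moved by more than 1.5 times or where the call changed. For some it lies within a range over arrays left out singly. The background of an array, set as the highest of 27 control probe sets for Bacillus subtilis genes, was 356, 424 and 1664 on 8-16-cell replicates 1, 2 and 3 and 172, 196 and 254 on blastocyst replicates 1, 2 and 3. Probe sets above it numbered 4297, 5333 and 1255 on the 8-16-cell arrays against 8500, 8129 and 8359 on the blastocyst arrays. Replicate 3 correlated less with its own group (r = 0.324 and 0.312 over probe sets) than the other 8-16-cell arrays did with each other (r = 0.537), and the blastocyst arrays correlated among themselves at 0.540 to 0.640. The blastocyst arrays showed 8329 ± 187 probe sets above background (mean ± SD, n = 3) and the 8-16-cell arrays 3628 ± 2119.6. The difference of 4701 had an exact two-sided permutation p of 0.1, the smallest that 3 arrays against 3 allow, and was 3514 without replicate 3. With a fixed signal of 500 as the limit the difference turned to -766 (exact permutation p = 0.9), as replicate 3 then counted 8123 against 3421 and 4334, and without that array it was 649 (exact permutation p = 0.4). Median signals overlapped, at 109, 152 and 162 on the 8-16-cell arrays and 95.6, 115 and 156 on the blastocyst arrays. The lower control background of the blastocyst arrays moves with every rise below, and its part in those rises was not tested. In pooled embryos, fewer cells of a type and less RNA per cell cannot be told apart.

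Genes of respiration, ribosomes, actin and keratin filaments, lysosomes and epithelial adhesion were among those higher in blastocysts, and oocyte genes among those lower. Signals were tested as log2(signal + 16) with limma over all 12 arrays, at a Benjamini-Hochberg adjusted p of 0.05 over all probe sets. With all arrays 563 probe sets passed (2.34% of those tested), 344 of them higher in blastocysts (1.43%) and 219 lower (0.912%). Without replicate 3, 535 passed (2.23%), 326 higher (1.36%) and 209 lower (0.870%). Of the 563, 393 (69.8%) passed both ways and are 73.5% of the 535; 262 of these were higher and 131 lower. Of the rises 76.2% kept their call and of the falls 59.8%, a difference that was not tested. Leaving out blastocyst replicate 1, 2 or 3 instead gave 299, 272 and 273 probe sets. The calls were large: the median size was 5.28 among the rises (range 2.20 to 9.61, log2) and 5.10 among the falls (1.56 to 9.86).

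**Figure D1:**
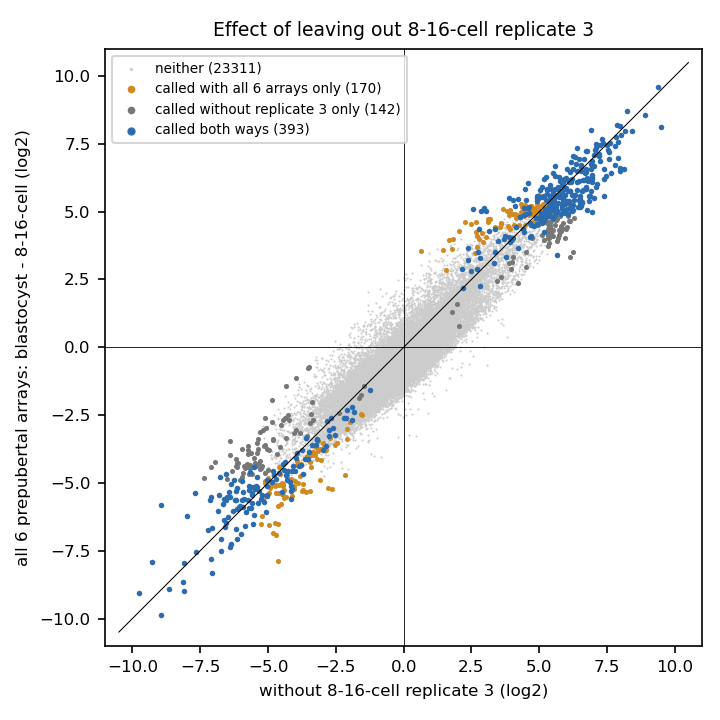
Each point is 1 of 24016 probe sets, with the blastocyst minus 8-16-cell log2 difference without 8-16-cell replicate 3 on the x axis and with all 6 prepubertal arrays on the y axis. Blue points (393) passed both ways, orange points (170) only with all arrays and dark grey points (142) only without replicate 3; the line marks equality.

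At the level of genes, taking for each the probe set of highest mean among those that name exactly 1 gene, 362 of 9155 genes passed (3.95%), 235 higher (2.57%) and 127 lower (1.39%). Without replicate 3 there were 339 (3.70%), 221 higher (2.41%) and 118 lower (1.29%), and 261 genes passed both ways. Each array of one stage lay above every array of the other for 1803 genes (19.7%), many more than passed. Among the 45 falls lost without replicate 3, that array was the highest of the 8-16-cell arrays in 38 (84.4%). It was the highest in 61.4% of all falls and for 46.2% of all genes. Among the 56 lost rises it was the lowest in 33 (58.9%), where it was the lowest in 32.8% of all rises and for 25.3% of all genes. A call is lost more readily where the array left out favoured it, so these shares follow in part from the selection and test nothing. Of 144 genes that passed and have 2 or more probe sets, 91 (63.2%) had all of them on the same side, against 51.1% of all such genes, and in 0 of them did another probe set pass in the opposite direction. For 197 of the 344 rises and 76 of the 219 falls the dimmer stage lay at background on all of its arrays, so only a lower bound of the fold can be given. In such cases "at least" compares the brighter stage with the dimmer one after each dim signal is raised to its array's background. A stricter alternative raised every signal below 1664, the highest background of any array, to that value. At this common floor 45 of 121 named genes that had passed lost the call, and those described below are given with their value there. The 121 are genes named by rule. Genes added after their values were seen, such as ENPEP, SDHA, HDAC1 and KDM1A, are not among them. For these no value at the floor or without another single array is given, so their calls are not shown to hold there. Signals below are in the order of replicates 1, 2 and 3, with the 8-16-cell arrays before the blastocyst arrays.

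**Figure D2:**
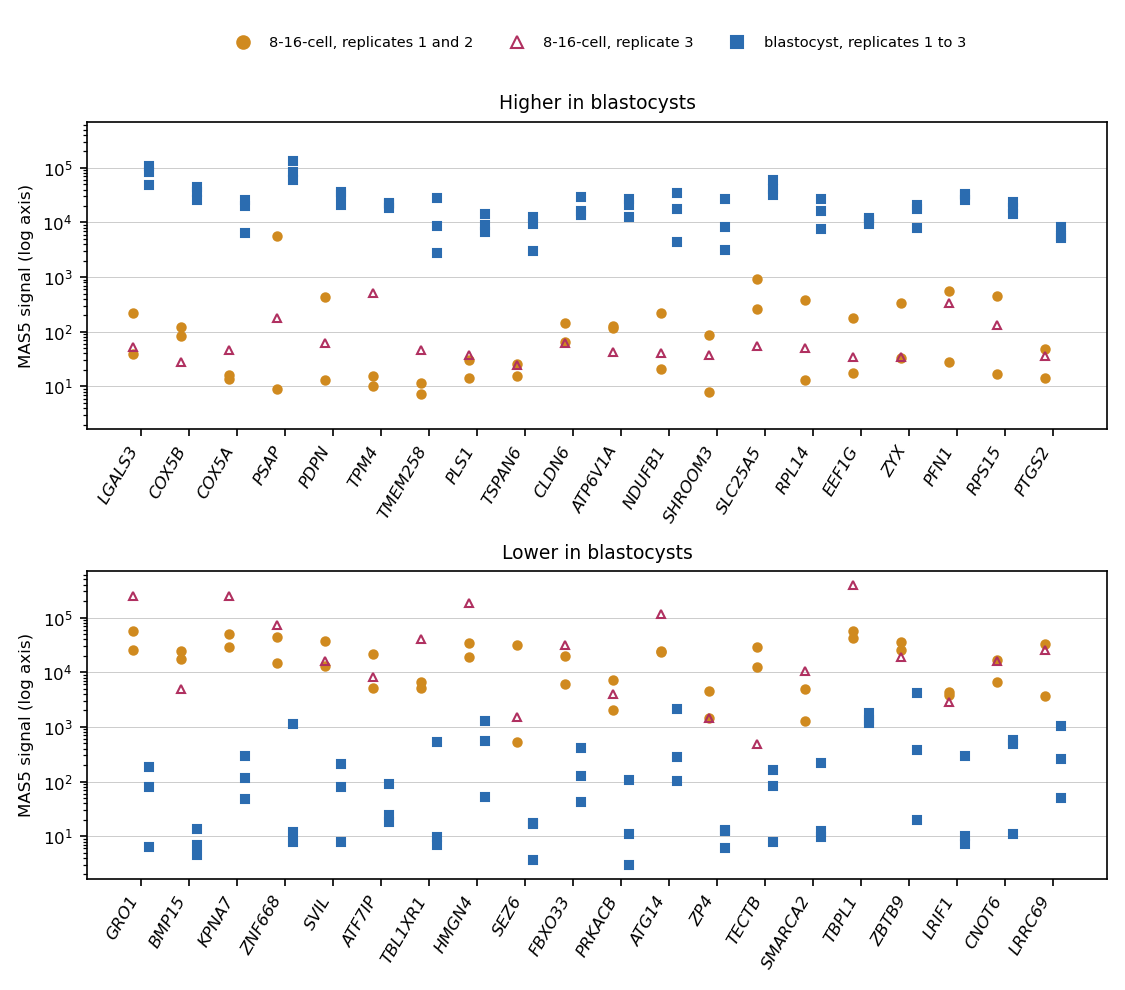
MAS5 signal on a log axis for the 20 largest rises (upper) and the 20 largest falls (lower) among genes that passed with and without replicate 3 and whose stages do not overlap. Each point is 1 array: filled circles are 8-16-cell replicates 1 and 2, open triangles 8-16-cell replicate 3 and squares the 3 blastocyst arrays. Triangles lie highest of the 8-16-cell arrays for falls such as GRO1, KPNA7, HMGN4 and TBPL1.

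Some genes of the trophectoderm rose. Of 31 measured members of a trophectoderm list, 8 rose and 0 fell, with and without replicate 3 (25.8%, where 3.95% and 3.70% of all genes were called). The list's median difference lay 1.79 above that of all genes (1.76 without replicate 3, log2). Of the 31 members, 18 lay above the median of all genes (20 without replicate 3). KRT18, a keratin of simple epithelia, had signals of 175, 495 and 137 on the 8-16-cell arrays and 31999, 13644 and 29790.4 on the blastocyst arrays. The stages did not overlap, and the difference was 6.58 (SE 1.36, adjusted p = 0.000602) on the log2 scale, or 6.24 (SE 1.33, adjusted p = 0.0012) without replicate 3. Its filament partner KRT8 read 248, 25.5 and 48.6 against 16213, 16056 and 573, so that blastocyst replicate 3 was far dimmer than the other blastocyst arrays. The difference for KRT8 was 5.91 (SE 1.48, adjusted p = 0.00888), at least 8.40-fold (13.6-fold without replicate 3). CLDN6, a claudin of tight junctions, read 143, 64.1 and 61.2 against 29394, 16229 and 13421. It rose at least 29.4-fold (47.8-fold without replicate 3; log2 7.54, adjusted p = 0.000123; 7.36 without replicate 3), while a second probe set of the gene showed 0.70. PTGS2, which makes prostaglandin precursors, was at background on all 8-16-cell arrays (49.2, 14.5 and 35.5) and read 5245, 5763 and 8304 in blastocysts, at least 10.0-fold (16.2-fold without replicate 3) higher (adjusted p = 0.000602). Its other probe sets showed 0.59 and -0.86. KRT8 (log2 2.18, adjusted p = 0.191) lost the call at the common floor.

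AQP3, a channel for water and glycerol, read 319, 1892 and 990.2 on the 8-16-cell arrays and 25732, 16072 and 31455 on the blastocyst arrays, with 1 of the 8-16-cell arrays above its background. Its difference was 4.77 (SE 1.14, adjusted p = 0.00496), and 4.88 (SE 1.07, adjusted p = 0.00197) without replicate 3. S100A14, a calcium-binding protein of epithelia, rose by 6.95 (adjusted p = 0.000906), KRT19 by 6.11 (adjusted p = 0.00592) and the peptidase gene ENPEP by 5.67 (adjusted p = 0.0139). Not every defining gene passed. IFNT2, an interferon tau gene by which the ruminant trophectoderm signals to the mother, read 62.5, 14.1 and 36.6 against 3292, 1107 and 17.0, so 1 of 3 blastocyst pools was at background and the stages overlapped (log2 3.32, SE 1.48, adjusted p = 0.27). ATP1B1, a subunit of the sodium pump that drives cavity filling, read 10463, 20979 and 33806 against 2769, 1184 and 3848, lower in blastocysts on every array, and did not pass (log2 -3.06, SE 1.13, adjusted p = 0.145). CDX2 and GATA3 have no named probe set here. Of 16 ion and water transport genes AQP3 rose (6.25%, where 3.95% of all genes were called). Without replicate 3 the share was 12.5% against 3.70% of all genes, as CLIC1, of a chloride channel family, rose too (4.5, adjusted p = 0.000183, and 2.96, adjusted p = 0.0617 with all arrays). Single arrays decided some of these calls: KRT8 (without 8-16-cell replicate 2 or blastocyst replicate 1 or 2, log2 5.11 to 5.36, adjusted p = 0.0516 to 0.124), KRT19 (without 8-16-cell replicate 1, log2 5.23, adjusted p = 0.0571) and AQP3 (without blastocyst replicate 3, log2 4.56, adjusted p = 0.0588). S100A14 (log2 2.51, adjusted p = 0.188) and KRT19 (log2 1.61, adjusted p = 0.0632) lost the call at the common floor.

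Some adhesion genes rose as well, with fewer calls without replicate 3. Of 32 measured genes of epithelial junctions, 7 rose and 1 fell with all arrays, and 4 rose and 0 fell without replicate 3, with a median 2.61 and 1.87 above all genes. CTNNA1, which links cadherins to actin, read 339.6, 1919.6 and 31.1 on the 8-16-cell arrays and 14293, 15204 and 11775 on the blastocyst arrays and differed by 5.42 (SE 1.26, adjusted p = 0.00336), or 4.04 without replicate 3 (adjusted p = 0.0247). PERP, a desmosome-associated membrane protein, read 8.74, 552 and 21.7 against 9271, 15295 and 3296 and differed by 6.59 (SE 1.41, adjusted p = 0.0011). ITGB5, an integrin beta chain, read 4943, 39079.6 and 5174 against 105345, 63949.7 and 135362 and rose by 3.27 (adjusted p = 0.000934), or 2.80 without replicate 3 (adjusted p = 0.00055). The call of ITGB5 was lost when limma was run without its trend (adjusted p = 0.151), and its second probe set showed -0.71. CDH1, the epithelial cadherin that holds blastomeres together at compaction, read 3485, 1991 and 425 against 9068, 20246 and 23609. Its difference of 3.48 (adjusted p = 0.0435) was 2.62 without replicate 3 (adjusted p = 0.105), so the call rested on that array. The same held for JAM2, a junctional adhesion molecule, which read 4790.1, 219 and 113364 against 70.6, 13.4 and 11.5 and whose fall of -6.93 became -4.69 (adjusted p = 0.105). Outside the list, PDPN (podoplanin, a membrane glycoprotein) read 424, 13.2 and 62.3 against 20856, 31870.4 and 35799, 8.17 higher in blastocysts (adjusted p = 6.59e-06), and SHROOM3, which constricts the apical actin of epithelial cells, read 7.90, 86.7 and 37.7 against 3112, 27097 and 8228, at least 14-fold (22.8-fold without replicate 3) higher (adjusted p = 0.000115). The calls of CDH1 and ITGB1 were lost when single arrays were left out: CDH1 (without 8-16-cell replicate 3 or blastocyst replicate 1, 2 or 3, log2 2.62 to 3.91, adjusted p = 0.0841 to 0.199), ITGB1 (without 8-16-cell replicate 2 or 3 or blastocyst replicate 1, 2 or 3, log2 4.52 to 5.11, adjusted p = 0.0558 to 0.147). That of CDH1 was also lost without any 1 adult blastocyst array (adjusted p = 0.0601 to 0.0687), through the shared variance. SHROOM3 (log2 2.40, adjusted p = 0.0703), PERP (log2 2.21, adjusted p = 0.0523), JAM2 (log2 -2.53, adjusted p = 0.318) and ITGB1 (log2 1.06, adjusted p = 0.148) lost the call at the common floor.

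Some filament genes also rose. Of 50 measured keratin and actin cytoskeleton genes, 15 rose and 1 fell (16 and 1 without replicate 3), and 15 genes of the list passed both ways. Calls made up 32.0% of the list with all arrays and 34.0% without replicate 3, where 3.95% and 3.70% of all genes were called. ACTB, cytoplasmic beta actin, read 21678, 8816 and 1279.6 on the 8-16-cell arrays and 133049, 124683 and 108931 on the blastocyst arrays, and differed by 4.28 (SE 0.70, adjusted p = 5.60e-06), or 3.14 without replicate 3 (adjusted p = 1.17e-05). ACTG1, gamma actin, read 1140.3, 399 and 4504 against 58386, 73504 and 92597, a difference of 5.83 (SE 1.01, adjusted p = 2.00e-05) and of 6.73 without replicate 3. No 8-16-cell array reached a blastocyst array for either gene. PFN1 (profilin, which feeds actin monomers to growing filaments) read 554, 28.3 and 335 against 25565, 32043 and 33422, a difference of 7.19 (SE 1.23, adjusted p = 1.41e-05). TPM4, a tropomyosin that coats actin filaments, read 10.1, 15.6 and 508 against 22056, 22649 and 18047. It rose at least 33.0-fold (53.6-fold without replicate 3), and its log2 difference was 8.11 with and 9.50 without replicate 3, the array on which its 8-16-cell signal was highest. ZYX (zyxin, of focal adhesions) read 33.4, 340.0 and 34.1 against 21217, 7952 and 17248, at least 22.6-fold (36.7-fold without replicate 3) higher (adjusted p = 0.000342). LASP1, an actin-binding adaptor, read 2358, 2887 and 1002 against 47626, 67048 and 57034, a difference of 4.89 (SE 0.85, adjusted p = 2.01e-05). PLS1 (a plastin that bundles the actin of microvilli) rose by 7.83, TPM1 by 6.77, MSN (moesin, which ties actin to the membrane) by 6.48 and MYL12A, a myosin light chain, by 5.49 (3.89 without replicate 3). The exception was SVIL (supervillin, which binds actin and myosin at membranes): it read 12827, 37934 and 15816 against 81.1, 7.93 and 206 and was at least 96.6-fold lower in blastocysts (-7.95, adjusted p = 2.04e-05; -8.11 without replicate 3).

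Galectins and annexins, which bind sugars and membrane phospholipids, followed the same direction where they passed. Of 25 measured annexins, galectins and S100 proteins, 6 rose and 0 fell, and without replicate 3 the counts were 5 and 1. Either way 24.0% of the list was called, where all genes gave 3.95% and 3.70%. Of the 25, 17 lay above the median of all genes (20 without replicate 3). LGALS3 (galectin-3) gave the largest rise of all probe sets with all arrays, at signals of 38.4, 222 and 53.3 on the 8-16-cell arrays and 47394, 106546 and 84768 on the blastocyst arrays, at least 119-fold (194-fold without replicate 3; log2 9.61, SE 1.28, adjusted p = 7.51e-09). ANXA1 read 15.2, 25.7 and 25.8 against 3928, 2804 and 7593 and ANXA2 226, 432 and 33.4 against 12798, 18417 and 14053. Their differences were 6.86 (adjusted p = 0.000969) and 6.41 (adjusted p = 0.00186; log2 5.50 without replicate 3), and neither pair of stages overlapped. LGALS1 and ANXA6 passed with all arrays only, and lost the call without most single arrays: LGALS1 (without 8-16-cell replicate 1 or 3 or blastocyst replicate 1, 2 or 3, log2 4.72 to 5.52, adjusted p = 0.0649 to 0.163), ANXA6 (without 8-16-cell replicate 1 or 3 or blastocyst replicate 1, 2 or 3, log2 4.64 to 5.23, adjusted p = 0.0802 to 0.117). FN1, which encodes the matrix protein fibronectin and was the 1 of 21 primitive endoderm genes that rose with all arrays, read 90.1, 227 and 852 against 30778, 17942 and 33848, at least 42.1-fold (68.3-fold without replicate 3) higher (log2 6.56, SE 1.32, adjusted p = 0.000435; 7.37 without replicate 3). Without replicate 3 GATA6, a transcription factor of that lineage, rose as well (4.01, adjusted p = 0.0411, and 3.96, adjusted p = 0.0587 with all arrays). Calls made up 4.76% of the primitive endoderm list with all arrays and 9.52% without replicate 3, where 3.95% and 3.70% of all genes were called. ANXA1 (log2 1.39, adjusted p = 0.125) and ANXA6 (log2 0.41, adjusted p = 0.852) lost the call at the common floor.

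Respiratory chain genes gave the greatest list median. Of 42 measured subunits of complexes II to V, 19 rose and 0 fell (18 and 0 without replicate 3), and 40 of the 42 lay above the median of all genes. Of 37 measured complex I subunits, 9 rose and 0 fell, both with and without replicate 3. Complexes II to V had 45.2% of members called and complex I 24.3% (42.9% and 24.3% without replicate 3), where all genes had 3.95% (3.70%). The list medians were 3.98 and 3.36 above that of all genes, and 4.32 and 3.68 without replicate 3. In the terminal oxidase, complex IV, COX5B read 82.0, 119.8 and 27.5 on the 8-16-cell arrays and 44733, 26153 and 36232 on the blastocyst arrays and COX5A 16.5, 13.9 and 46.2 against 20108, 6339 and 26234. These are at least 55.3-fold (89.7-fold without replicate 3) and at least 23.7-fold (38.5-fold without replicate 3) higher levels in blastocysts, with differences of 8.71 (SE 1.31, adjusted p = 7.01e-07) and 8.58 (SE 1.38, adjusted p = 4.08e-06). COX7A2, of the same complex, varied little over the 8-16-cell arrays, at 608, 764 and 719 against 21457, 30201 and 64213, and differed by 5.61 (SE 0.97, adjusted p = 1.90e-05). COX4I1 rose by 6.56 (adjusted p = 0.00204) and by 8.12 without replicate 3.

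In ATP synthase, ATP5F1A (the alpha subunit of its catalytic head) read 2675, 295 and 241 on the 8-16-cell arrays and 23362, 36788 and 65446 on the blastocyst arrays, a difference of 6.0 (SE 1.02, adjusted p = 1.23e-05; 5.39 without replicate 3), although a second probe set showed -3.14 and did not pass. ATP5MC3, a subunit of its membrane ring, read 166, 375 and 48.7 against 14553, 36628 and 18089 and was at least 33.7-fold (54.8-fold without replicate 3) higher in blastocysts (adjusted p = 0.000213; log2 6.32 without replicate 3). UQCRB, of complex III, read 495, 19.6 and 135 against 14481, 15038 and 9262, a difference of 6.50 (SE 1.37, adjusted p = 0.000853), with -0.57 on its second probe set. SDHA, the catalytic subunit of complex II, rose by 5.52 (adjusted p = 0.0194; log2 7.02 without replicate 3). Among complex I subunits, NDUFB3 read 123, 586 and 367 against 10073, 17208 and 25648, a difference of 5.70 (SE 1.18, adjusted p = 0.000679). NDUFB1 read 20.5, 219 and 41.0 against 17553, 4457 and 34266, at least 22.0-fold (35.8-fold without replicate 3) higher (adjusted p = 0.000213), with -0.60 on its second probe set. SLC25A5, the carrier that exchanges ADP for ATP across the inner membrane, read 258, 923 and 55.8 against 31378, 60660.3 and 41052, a difference of 7.34 (SE 1.20, adjusted p = 5.89e-06; 6.40 without replicate 3), with -2.54 on its other probe set. NDUFA6, with 1 blastocyst array at 513, passed with all arrays (5.62, adjusted p = 0.0177) but not when single arrays were left out: NDUFA6 (without 8-16-cell replicate 1 or 3 or blastocyst replicate 1 or 3, log2 4.82 to 5.32, adjusted p = 0.059 to 0.161). The mitochondrial ribosome gave fewer calls: of its 68 measured proteins 0 passed in limma with all arrays, with 12 (17.6%) at an unadjusted p under 0.05, where all genes gave 17.3%, and 1, MRPS23, passed without replicate 3 (6.14, adjusted p = 0.0123). The list's median lay 1.05 above all genes. NDUFB1 (log2 3.05, adjusted p = 0.0558) and NDUFA6 (log2 1.87, adjusted p = 0.238) lost the call at the common floor.

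Some genes of cytoplasmic ribosomal proteins rose and 0 fell. Of 39 measured proteins of the large subunit 19 rose (18 without replicate 3), and of 25 of the small subunit 8 rose (9 without replicate 3). These are 48.7% and 32.0% (46.2% and 36.0% without replicate 3), where 3.95% of all genes were called (3.70% without it). All but 1 gene of each list lay above the median of all genes, and the list medians were 3.84 and 3.25 above it. RPL14 read 386, 12.9 and 50.4 on the 8-16-cell arrays and 26666, 16014 and 7538 on the blastocyst arrays, a difference of 7.33 (SE 1.32, adjusted p = 4.57e-05). RPS15 read 16.7, 443 and 130.2 against 18463, 14013 and 23411, a difference of 7.13 (SE 1.28, adjusted p = 3.74e-05). The rule that chose both genes required stages that do not overlap. In each the lowest blastocyst array lay above the highest 8-16-cell array by more than an order of magnitude. RPS18 read 7094, 2241 and 1363 against 82944, 76271 and 76619, so that the blastocyst pools were close to each other and the 8-16-cell pools spread, and differed by 4.81 (SE 0.82, adjusted p = 1.29e-05). RPL34 read 1078, 776 and 467 against 20618, 23536 and 25563, a difference of 4.95 (SE 1.12, adjusted p = 0.00257).

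The 8-16-cell array of replicate 3 weighed on several of these proteins. RPL5 read 7077, 10324 and 26.1 on the 8-16-cell arrays and 64246, 44533 and 43551 on the blastocyst arrays, and its difference of 5.10 (adjusted p = 0.000177) was 2.54 without replicate 3 (adjusted p = 0.0261). RPS3A, at 3015, 12863 and 55.2 against 43445, 55466 and 49609, went from 5.13 to 2.98 (adjusted p = 0.00327), and RPS26 from 5.01 to 3.03 (adjusted p = 0.0361). The calls of these 3 genes held without it, with smaller differences. RPL8 and RPL22 lost theirs (3.60, adjusted p = 0.149, and 3.91, adjusted p = 0.0744). In the other direction RPS27 went from 5.56 to 7.37, and RPS26 lost its call without blastocyst replicate 3 (4.35, adjusted p = 0.065). RPL5 (log2 3.33, adjusted p = 0.0546) lost the call at the common floor, and also when limma was run without its trend.

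Of 42 measured translation factors 2 rose and 1 fell (7.14%, where 3.95% of all genes were called), and 3 rose and 0 fell without replicate 3. EEF1G, a subunit of the elongation factor that reloads EEF1A, read 177, 17.4 and 33.9 on the 8-16-cell arrays and 12083, 10898 and 9351 on the blastocyst arrays, at least 17.0-fold (27.6-fold without replicate 3) higher (log2 7.29, SE 1.38, adjusted p = 0.000126). PABPC1, the cytoplasmic poly(A) binding protein, read 819.6, 286 and 58.4 against 9999, 5686 and 27113, a difference of 5.44 (SE 1.23, adjusted p = 0.00257; 4.52 without replicate 3), and its 3 other probe sets showed 1.50, 1.35 and -1.55. EIF1, which guards start codon choice, fell by 3.53 (adjusted p = 0.035) and gave -2.99 without replicate 3 (adjusted p = 0.0948). Of 38 genes of ribosome assembly 0 passed in limma, with or without replicate 3. At an unadjusted p under 0.05 there were 5 (13.2%) and 9 (23.7%), where all genes gave 17.3% and 16.3%. The list's median lay at -0.22 against all genes. Its 2 smallest p-values had opposite signs: DDX21, a nucleolar helicase, differed by -3.97 (adjusted p = 0.112) and GNL3 by 4.04 (adjusted p = 0.13). Single arrays decided PABPC1 and EIF1: PABPC1 (without blastocyst replicate 3, log2 4.83, adjusted p = 0.0674), EIF1 (without 8-16-cell replicate 2 or 3 or blastocyst replicate 2 or 3, log2 -2.99 to -3.65, adjusted p = 0.0612 to 0.207). The call of EIF1 was also lost with quantile normalization or median centring. PABPC1 (log2 2.78, adjusted p = 0.0523) lost the call at the common floor.

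Some lysosome genes rose. Of 45 measured genes of the lysosome and its proton pump, a list that also holds ferritin, 11 rose and 0 fell (10 and 0 without replicate 3), with a median 2.29 above all genes. Calls made up 24.4% of the list (22.2% without replicate 3), where all genes had 3.95% (3.70%). FTH1, the ferritin heavy chain that stores iron, had the smallest p of all genes named here, with signals of 1496, 374 and 2794 on the 8-16-cell arrays and 126662, 176999 and 142679 on the blastocyst arrays and a difference of 6.96 (SE 0.82, adjusted p = 1.06e-10), or 7.58 (SE 0.68, adjusted p = 3.23e-16) without replicate 3. PSAP, the precursor of the saposins that help degrade sphingolipids, read 9.11, 5608 and 175 against 59326, 84244 and 132466, a difference of 8.18 (SE 1.07, adjusted p = 4.92e-09). Its 8-16-cell pools disagreed widely, from below background to 5608. None reached the blastocyst pools, which the rule that chose the gene required. ATP6V1A, the catalytic subunit of the proton pump, read 128, 118 and 43.2 against 12574, 20595 and 26799.8, at least 30.2-fold (49.1-fold without replicate 3) higher (log2 7.51, SE 1.19, adjusted p = 2.43e-06), and its 3 other probe sets were all positive (2.52, 2.46 and 5.33). The pump's accessory subunit ATP6AP1 read 18.2, 21.6 and 9.44 against 5449, 1300.3 and 5337, at least 5.32-fold (8.64-fold without replicate 3) higher (adjusted p = 0.00168). The cathepsin genes CTSL and CTSV rose by 6.30 (adjusted p = 0.00316) and 3.91 (adjusted p = 0.0027). For CTSV the call was lost when limma was run without its trend (adjusted p = 0.0515). LAMP2, a lysosomal membrane protein, rose by 6.09 (6.94 without replicate 3) and CD9, a tetraspanin, by 3.41, the latter 5.65 without replicate 3. NPC2, which exports cholesterol from lysosomes, was the gene of the list whose call was lost without that array (3.96, adjusted p = 0.162), and other single arrays ended it too: NPC2 (without 8-16-cell replicate 1 or 3 or blastocyst replicate 1, 2 or 3, log2 3.96 to 5.63, adjusted p = 0.0587 to 0.203). NPC2 (log2 1.43, adjusted p = 0.441) and ATP6AP1 (log2 1.12, adjusted p = 0.321) lost the call at the common floor.

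**Figure D3:**
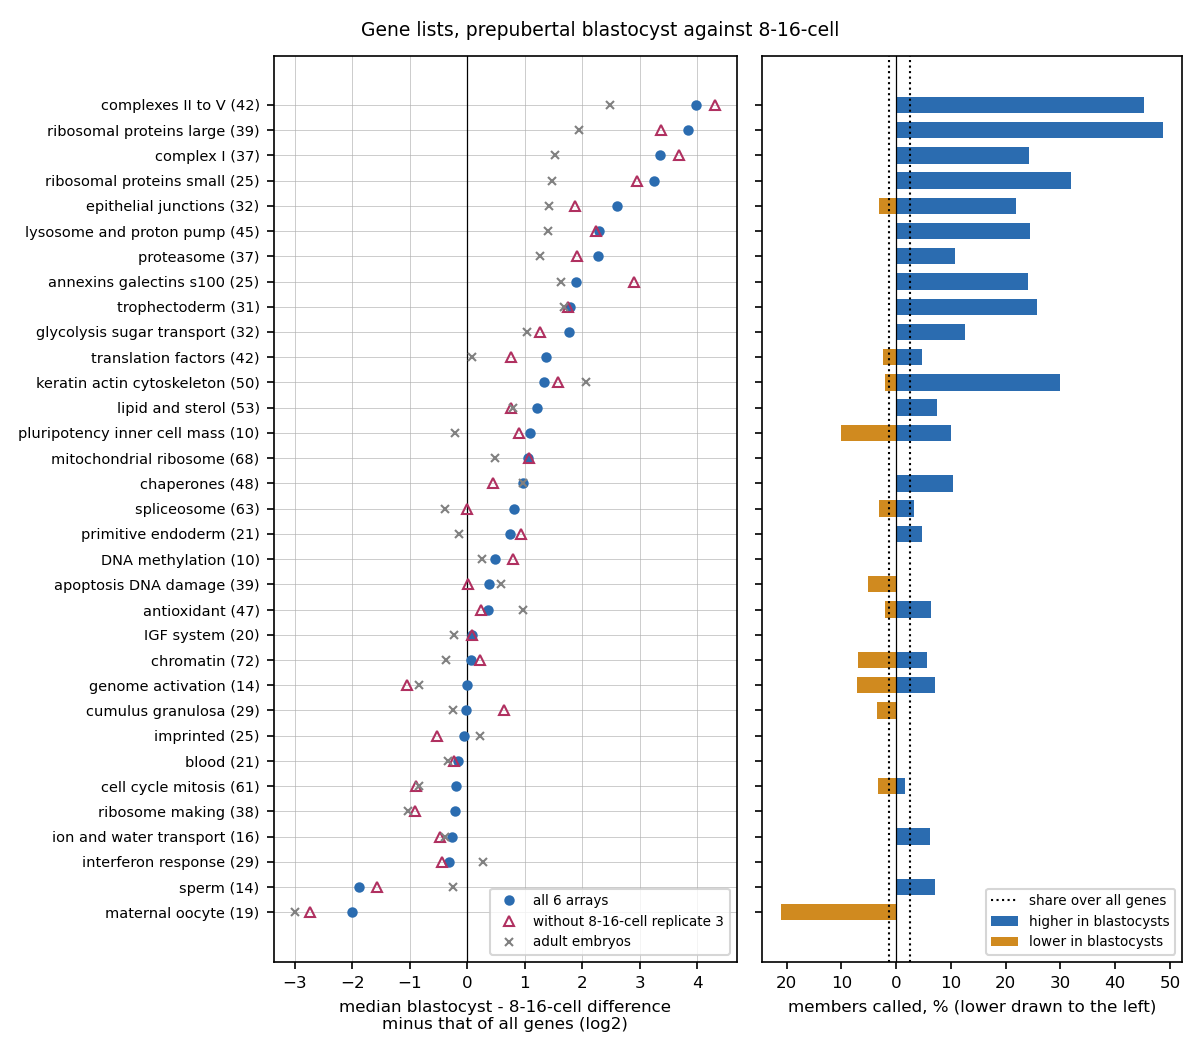
Left, the median blastocyst minus 8-16-cell log2 difference of each of 33 gene lists minus that of all 9155 genes, with all 6 prepubertal arrays (circles), without 8-16-cell replicate 3 (triangles) and in adult embryos (crosses); measured members are in brackets. Right, the percentage of members that passed higher (blue) or lower (orange) with all arrays, with dotted lines at the shares over all genes (2.57% higher, 1.39% lower).

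Proteasome, chaperone and redox genes gave fewer calls, and many of them rested on single arrays. Of 37 measured proteasome genes 4 rose with all arrays (PSMA5, PSMB6, PSMD1 and PSMD6, adjusted p 0.0304 to 0.0434) and 1 without replicate 3, PSMB6. These are 10.8% and 2.70% of the list, where 3.95% and 3.70% of all genes were called. Without replicate 3 PSMA5 gave 3.86 (adjusted p = 0.0724), PSMD6 4.42 (adjusted p = 0.0942) and PSMD1 3.58 (adjusted p = 0.152). Their calls were also lost without 8-16-cell replicate 1 or without any 1 prepubertal blastocyst array (adjusted p = 0.0551 to 0.237). A second probe set of PSMD6 showed -0.34. PSMB6 itself read 9.06, 10.5 and 47.9 on the 8-16-cell arrays and 2954, 789 and 809.5 on the blastocyst arrays and lost the call without any 1 of the other prepubertal arrays: PSMB6 (without 8-16-cell replicate 1 or 2 or blastocyst replicate 1, 2 or 3, log2 4.55 to 5.49, adjusted p = 0.0724 to 0.199). Of 48 measured chaperones 5 rose with all arrays (10.4%), and 3 rose and 1 fell without replicate 3 (8.33%). CANX (calnexin, which folds glycoproteins in the endoplasmic reticulum) read 526, 1137 and 77.5 against 21739, 34396 and 36141, a difference of 6.27 (SE 1.02, adjusted p = 5.60e-06), or 5.25 without replicate 3. The mitochondrial chaperones HSPD1 and HSPE1 read 6828, 9014 and 40.2 against 34762, 43931 and 33793, and 4472, 5742 and 34.1 against 15392, 25969 and 23738. Among the 8-16-cell arrays replicate 3 alone was low for both, and without it the differences of 4.62 and 4.28 were 2.24 (adjusted p = 0.0723) and 2.06 (adjusted p = 0.23). HSPA4, a cytosolic co-chaperone, showed the pattern in full, at 25759.5, 13206 and 27.7 against 38470.4, 30728 and 19546: the stages overlapped apart from that array, and 3.53 (adjusted p = 0.0277) became 0.63 (adjusted p = 0.786). Other single arrays ended 2 of these calls too: HSPE1 (without 8-16-cell replicate 3 or blastocyst replicate 2 or 3, log2 2.06 to 4.20, adjusted p = 0.0704 to 0.23), HSPA4 (without 8-16-cell replicate 3 or blastocyst replicate 1, 2 or 3, log2 0.63 to 3.81, adjusted p = 0.0705 to 0.786). PSMB6 (log2 0.27, adjusted p = 0.441), PSMA5 (log2 1.82, adjusted p = 0.148), PSMD6 (log2 1.01, adjusted p = 0.441), PSMD1 (log2 1.63, adjusted p = 0.192) and HSPA4 (log2 1.78, adjusted p = 0.441) lost the call at the common floor.

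Among 47 measured antioxidant genes 3 rose and 1 fell, the same counts without replicate 3 (8.51%, where 3.95% and 3.70% of all genes were called). IDH1, which makes NADPH in the cytosol, read 720.2, 252 and 29.2 on the 8-16-cell arrays and 14737, 23818 and 28289 on the blastocyst arrays, a difference of 6.70 (SE 1.26, adjusted p = 0.000111; 5.60 without replicate 3). Thioredoxin (TXN) rose by 4.57 (adjusted p = 0.0194) and the peroxiredoxin gene PRDX1 by 4.10 (adjusted p = 0.0228). PRDX6, a peroxiredoxin that also reduces lipid peroxides, went the other way, at 24391, 36804 and 105054 against 10265, 974 and 1760.2 (log2 -4.12, SE 0.99, adjusted p = 0.00554; -3.51 without replicate 3), though its other probe sets showed 1.86, 3.12 and -0.43. Single arrays ended several of these calls: TXN (without 8-16-cell replicate 1 or blastocyst replicate 1, 2 or 3, log2 4.17 to 4.93, adjusted p = 0.0548 to 0.118), PRDX1 (without 8-16-cell replicate 2 or blastocyst replicate 1 or 3, log2 3.23 to 3.99, adjusted p = 0.13 to 0.203), PRDX6 (without blastocyst replicate 2, log2 -3.41, adjusted p = 0.0989). PRDX1 and PRDX6 also lost the call when limma was run without its trend. TXN (log2 2.66, adjusted p = 0.0523) lost the call at the common floor.

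Few genes of carbon and lipid metabolism passed, and those that did rose. Of 32 measured genes of glycolysis, pyruvate entry and sugar transport, 4 rose with all arrays (ALDOA, GAPDH, PDHA1 and PDHB) and 1 without replicate 3. These are 12.5% and 3.12% of the list, where 3.95% and 3.70% of all genes were called. Without replicate 3 ALDOA gave 4.67 (adjusted p = 0.11) and PDHA1 4.89 (adjusted p = 0.0603). Both calls were also lost without another 8-16-cell array (replicate 2 for ALDOA, 1 for PDHA1) or without any 1 prepubertal blastocyst array (adjusted p = 0.0751 to 0.185). The other probe sets of PDHA1 showed -2.37, 0.73 and 2.39. PDHB, the beta subunit of pyruvate dehydrogenase, read 135, 223 and 367 on the 8-16-cell arrays and 19626, 7187 and 11355 on the blastocyst arrays, at least 18.5-fold (30.1-fold without replicate 3) higher (log2 5.61, SE 1.39, adjusted p = 0.00805), and without replicate 3 5.95 (adjusted p = 0.005). It lost the call without blastocyst replicate 1 (5.24, adjusted p = 0.0878), and its other probe sets showed -0.01 and -1.30. GAPDH, often used as a reference gene, read 13.2, 178 and 33.5 against 2189.7, 2840.3 and 1695, at least 3.48-fold (5.64-fold without replicate 3) higher (log2 5.08, SE 1.48, adjusted p = 0.0357), and lost the call without single arrays: GAPDH (without 8-16-cell replicate 1 or 3 or blastocyst replicate 1, 2 or 3, log2 4.49 to 5.26, adjusted p = 0.0822 to 0.142). The glucose transporter gene SLC2A1 read 736, 977 and 463 against 4226, 1343 and 2892 and did not pass (log2 1.85, SE 1.43, adjusted p = 0.62). Of 53 lipid and sterol genes 4 rose with all arrays (7.55%) and 5 without replicate 3 (9.43%), 2 of them both ways. SCP2, a sterol carrier, read 12.7, 174 and 99.8 against 6972, 13612 and 7774, at least 14.3-fold (23.3-fold without replicate 3) higher (log2 6.72, SE 1.45, adjusted p = 0.00124). ELOVL6, which lengthens fatty acids, read 4.65, 176 and 238 against 3478, 7341 and 13707, at least 11.2-fold (18.1-fold without replicate 3) higher (log2 6.14, SE 1.40, adjusted p = 0.00287; 6.81 without replicate 3). SCD, which desaturates fatty acids, passed without replicate 3 only (5.79, adjusted p = 0.0208; 4.48 and 0.0795 with all arrays). PDHA1 (log2 0.37, adjusted p = 0.724), GAPDH (log2 0.39, adjusted p = 0.208), ALDOA (log2 0.74, adjusted p = 0.284) and ELOVL6 (log2 2.07, adjusted p = 0.12) lost the call at the common floor.

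Some oocyte transcripts fell. Of 19 measured maternal and oocyte genes 4 fell and 0 rose, with and without replicate 3, and 3 of the 19 lay above the median of all genes. The calls are 21.1% of the list either way, where 3.95% and 3.70% of all genes were called. The list's median was 2.00 below that of all genes, and 2.73 below it without replicate 3. BMP15, a growth factor secreted by the oocyte, read 24984, 17457 and 4961 on the 8-16-cell arrays and 4.53, 7.05 and 13.6 on the blastocyst arrays, at least 63.3-fold (102-fold without replicate 3) lower in blastocysts (log2 -9.07, SE 1.42, adjusted p = 2.09e-06), and differed by -9.76 without replicate 3. Its second probe set fell too (-5.63). KPNA7, an importin of oocytes and cleaving embryos, read 49094, 29232 and 249600.0 against 48.9, 116 and 298, a difference of -9.0 (SE 1.38, adjusted p = 1.13e-06; -8.09 without replicate 3). ZP4, a protein of the zona pellucida, read 4559, 1473 and 1461 against 12.8, 6.01 and 12.3, at least 10.5-fold lower (log2 -6.37, SE 1.46, adjusted p = 0.00291). AURKA, a mitotic kinase with a large maternal store, was bright at both stages (171736, 187052 and 531648 against 14216, 6037 and 24597) and fell by 4.33 (adjusted p = 6.01e-06). GDF9, the partner of BMP15, read 987, 3320.3 and 97.6 against 78.5, 7.29 and 64.2 and did not pass (log2 -3.69, SE 1.45, adjusted p = 0.184; -5.03, adjusted p = 0.065 without replicate 3). NLRP5, an oocyte protein needed for cleavage, was at or near background on all arrays (299, 19.1 and 37.6 against 9.19, 28.7 and 283), and ZAR1 has no named probe set here. ZP4 (log2 -0.48, adjusted p = 0.441) lost the call at the common floor.

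Other large falls lay outside the lists of maternal genes. GRO1, a chemokine gene, gave the largest fall of all probe sets with all arrays, at 56199, 25289.5 and 249638 on the 8-16-cell arrays and 80.4, 188 and 6.40 on the blastocyst arrays, at least 347-fold (185-fold without replicate 3; log2 -9.86, SE 1.36, adjusted p = 2.55e-08; -8.95 without replicate 3). That fall belongs to 1 probe set, since the gene's other 3 showed -0.34, -2.41 and 0.33. TBPL1, a TATA-binding protein relative, stayed above background in blastocysts, at 56118, 42920.4 and 387890.0 against 1347, 1819.9 and 1197, a difference of -6.08 (SE 1.03, adjusted p = 1.18e-05; -5.08 without replicate 3). ATG14, which starts autophagosome formation, read 23762, 24821 and 115146 against 2132, 101 and 279, a difference of -6.60 (SE 1.10, adjusted p = 8.30e-06; -5.85 without replicate 3), and FBXO33, an F-box protein of ubiquitin ligases, read 19998, 5996 and 32032 against 125, 409.8 and 42.9, a difference of -6.69 (SE 1.36, adjusted p = 0.000471), with -5.94 on its second probe set. For both genes every blastocyst array lay below every 8-16-cell array, which the rule that chose them required. PRKACB, a catalytic subunit of protein kinase A, read 7117, 2052 and 4001 against 2.96, 105 and 11, at least 19-fold lower (adjusted p = 0.00186). CNOT6, a deadenylase that shortens poly(A) tails, read 16838, 6552 and 16106 against 497, 568 and 11, a difference of -5.92 (SE 1.41, adjusted p = 0.0049), and the call was lost without blastocyst replicate 3 (-4.47, adjusted p = 0.137). Zinc finger genes were among them: ZNF668 read 43918, 14755 and 73616 against 1116, 7.74 and 12.1 (log2 -8.64, SE 1.38, adjusted p = 3.21e-06) and ZBTB9 35932, 25221 and 18728 against 4166, 20.2 and 371 (log2 -6.05, SE 1.17, adjusted p = 0.000208), each with 1 blastocyst pool well above the other 2. PRKACB (log2 -1.21, adjusted p = 0.425) lost the call at the common floor.

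Chromatin genes moved in both directions. Of 72 measured, 4 rose and 5 fell (3 and 5 without replicate 3), and the median was within 0.06 of all genes. Calls made up 12.5% of the list (11.1% without replicate 3), where all genes had 3.95% (3.70%). The genes that fell were ATF7IP, TBL1XR1, SMARCA2, HMGN4 and HMGB2. ATF7IP, which works with a histone methyltransferase, read 21494, 5221 and 8303 on the 8-16-cell arrays and 88.5, 24.8 and 17.9 on the blastocyst arrays, at least 47.8-fold lower (log2 -7.54, SE 1.48, adjusted p = 0.000264). TBL1XR1, of the NCoR corepressor complex, read 6699, 5099 and 41408 against 528, 6.79 and 9.88 (log2 -7.36, SE 1.40, adjusted p = 0.000134; -6.42 without replicate 3), and its second probe set showed -0.14. SMARCA2, an ATPase of SWI/SNF remodellers, read 1263, 5033 and 10652 against 221, 9.82 and 12.6 (log2 -6.19, SE 1.47, adjusted p = 0.00459; -5.51 without replicate 3) and lost the call without blastocyst replicate 2 (-5.64, adjusted p = 0.0524). Related DNA-bending proteins split. HMGB1 read 251, 15.4 and 1026 against 17014, 7669.8 and 26979.5, at least 24.1-fold (39.2-fold without replicate 3) higher in blastocysts (log2 6.21, SE 1.35, adjusted p = 0.00139; 7.38 without replicate 3), while HMGB2 read 141391, 98796 and 677160.0 against 21573, 52565 and 3089 and was lower (log2 -3.80, SE 0.64, adjusted p = 9.07e-06; -2.96 without replicate 3), with 1.88 on its second probe set. HMGN4, a nucleosome-binding protein, read 34739, 19321 and 182953 against 557, 51.3 and 1266, a difference of -7.08 (SE 1.16, adjusted p = 5.89e-06; -6.14 without replicate 3). The histone deacetylase gene HDAC1 rose by 5.19 (adjusted p = 0.0278; log2 5.82 without replicate 3) and the histone demethylase gene KDM1A by 5.55 (adjusted p = 0.0101). ATF7IP (log2 -2.54, adjusted p = 0.0841), TBL1XR1 (log2 -2.74, adjusted p = 0.0573), SMARCA2 (log2 -1.42, adjusted p = 0.353) and HMGB2 (log2 -3.80, adjusted p = 0.0682) lost the call at the common floor.

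Of 10 measured DNA methylation genes 0 passed by limma, with or without replicate 3. At an unadjusted p under 0.05 there were 4 (40%) with all arrays and 2 (20%) without it, where all genes gave 17.3% and 16.3%. UHRF1, which brings DNMT1 to replicating DNA, read 1411, 7017 and 2909 on the 8-16-cell arrays and 3.48, 266 and 396 on the blastocyst arrays (log2 -4.55, SE 1.43, adjusted p = 0.0624). DNMT1 was at or near background on all arrays, at 361, 16.6 and 35.0 against 9.51, 15.5 and 30.2. DNMT3B, a de novo methyltransferase, read 229, 1291 and 65.2 against 1960.3, 3736 and 1937 (log2 3.04, SE 1.46, adjusted p = 0.322; 2.11 without replicate 3), with -0.25 on its second probe set. DNMT3A gave 3.02 (adjusted p = 0.241; log2 1.50 without replicate 3) on its brightest probe set and 7.56 and -0.72 on its others.

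Factors of pluripotency and genome activation did not move together. Of 10 pluripotency genes 1 rose and 1 fell with all arrays, and the same pair accounts for the calls among 14 genome activation genes. These are 20.0% and 14.3% of the lists (30.0% and 14.3% without replicate 3), where all genes had 3.95% (3.70%). Without replicate 3 a second pluripotency gene fell, STAT3, a transducer of cytokine signals (-4.34, adjusted p = 0.0485; -1.42, adjusted p = 0.723 with all arrays). KLF4 read 136558, 157732 and 446667 on the 8-16-cell arrays and 14886, 38128 and 18577 on the blastocyst arrays and fell by 3.28 (adjusted p = 1.18e-05, or -2.74 without replicate 3). Its call was lost when limma was run without its trend (adjusted p = 0.123). KLF5, a related factor that also acts in trophectoderm, read 513, 41.9 and 973 against 13788, 11066 and 7517 and rose by 5.07 (adjusted p = 0.0105; 5.90 without replicate 3), a call lost without single arrays: KLF5 (without 8-16-cell replicate 2 or blastocyst replicate 1 or 2, log2 3.86 to 5.03, adjusted p = 0.0633 to 0.105). The 2 related factors thus moved in opposite directions. POU5F1 read 421, 656 and 31.4 against 3109, 808 and 1206: every blastocyst array was above every 8-16-cell array, without passing (log2 2.61, SE 1.48, adjusted p = 0.444; 1.44 without replicate 3). SOX2 was at background on all 6 arrays (18.5, 24.9 and 59.8 against 40.9, 15.8 and 72.0), and NANOG has no named probe set here.

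Cell division and splicing genes were called at shares near that of all genes (3.95%). Of 61 measured cell cycle genes 1 rose and 2 fell (4.92%), and 0 rose and 2 fell without replicate 3. CKS1B, a subunit of cyclin-dependent kinases, read 37009, 32834 and 108204 on the 8-16-cell arrays and 2102, 1190.1 and 3900.2 on the blastocyst arrays (log2 -4.56, SE 1.08, adjusted p = 0.00467), a call lost without blastocyst replicate 2 (-4.14, adjusted p = 0.0546). Of 63 spliceosome genes 2 rose and 2 fell (6.35%), and 2 rose and 3 fell without replicate 3. TRA2B and SRSF3, which bind exons to guide splicing, were bright at both stages. TRA2B read 74084, 56727 and 145139 against 10643, 3434 and 8976 and fell by 3.62 (adjusted p = 0.000602), a call lost when limma was run without its trend (adjusted p = 0.0778). SRSF3 read 94788, 53400.2 and 62646 against 10595, 8384 and 15156 and fell by 2.62 (adjusted p = 0.0211), with the call lost without single arrays: SRSF3 (without 8-16-cell replicate 1 or blastocyst replicate 1 or 2, log2 -2.39 to -2.60, adjusted p = 0.0843 to 0.135). That call was also lost with quantile normalization or median centring. Of 39 apoptosis and DNA damage genes 2 fell with all arrays (5.13%) and 1 without replicate 3 (2.56%, where 3.70% of all genes were called). With all arrays they were GADD45A, a stress-response gene (-4.36, adjusted p = 0.00893), and DIABLO, a mitochondrial activator of caspases (-3.52, adjusted p = 0.00207). DIABLO did not pass without replicate 3 (-2.44, adjusted p = 0.0505), on which its signal was 404191 against 61292 and 30229, nor without blastocyst replicate 3 (-2.91, adjusted p = 0.0626). GADD45A lost the call without blastocyst replicate 3 (-3.89, adjusted p = 0.079). None of 20 insulin-like growth factor genes, 29 interferon response genes or 25 imprinted genes passed in limma, with or without replicate 3. At an unadjusted p under 0.05 with all arrays there were 0, 2 and 3 of them, where all genes gave 1581 of 9155. DIABLO (log2 -3.52, adjusted p = 0.0561) lost the call at the common floor.

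**Figure D4:**
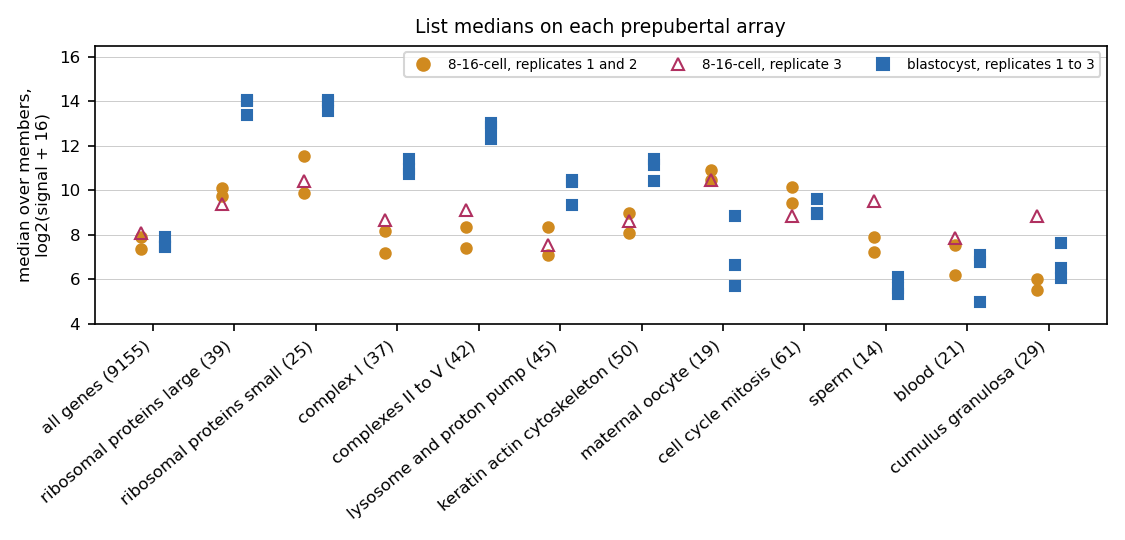
Median log2(signal + 16) over the members of 11 gene lists and over all genes on each prepubertal array, with measured members in brackets; circles are 8-16-cell replicates 1 and 2, triangles 8-16-cell replicate 3 and squares the blastocyst arrays. For complexes II to V the blastocyst arrays sit at 12.32 to 13.02 and the 8-16-cell arrays at 7.42 to 9.11, while the medians of all genes span 7.34 to 8.07.

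On single arrays the same order appeared. The median of large ribosomal subunit genes was 10.09, 9.74 and 9.39 on the 8-16-cell arrays and from 13.40 to 14.06 on the blastocyst arrays (log2 signal). That of complex I genes was 7.20, 8.16 and 8.65 against 11.42, 10.72 and 10.96. Maternal genes stood at 10.48, 10.90 and 10.47 against 6.65, 5.69 and 8.83, with replicate 3 at the level of the other 8-16-cell arrays. For all genes the medians were 7.34, 7.92 and 8.07 against 7.51, 7.43 and 7.89. All 33 lists are relative to this shift of all genes, which was -0.16 with all arrays and 0.07 without replicate 3.

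Many markers of other cell types lay at background. Of 29 cumulus and granulosa genes 13 were at background on all 6 arrays, of 21 blood genes 10 and of 14 sperm genes 8, against 2306 of all 9155 genes. The summed signal of the cumulus and granulosa list ran from 5829 to 23179 over the 8-16-cell arrays and from 8739 to 15933 over the blastocyst arrays. That of the blood list ran from 1835 to 9510.1 and from 1018 to 2539, and that of the sperm list from 2137 to 8504 and from 2886 to 5622. The median of the sperm list lay 1.88 below that of all genes, or 1.56 without replicate 3, and its part in other results was not tested. STAR, a cholesterol carrier of steroid-making cells, read 2413, 910.2 and 11344 on the 8-16-cell arrays and 156, 7.09 and 64.2 on the blastocyst arrays and fell with all arrays only (log2 -5.43, SE 1.47, adjusted p = 0.0203; -4.46, adjusted p = 0.13 without replicate 3), a call that other single arrays ended too: STAR (without 8-16-cell replicate 3 or blastocyst replicate 2 or 3, log2 -4.46 to -5.55, adjusted p = 0.0661 to 0.169). ODF2, a protein of the sperm tail and of centrosomes, rose with all arrays only (4.97, adjusted p = 0.0427; 4.61, adjusted p = 0.0948), likewise lost without other arrays: ODF2 (without 8-16-cell replicate 1 or 3 or blastocyst replicate 1, 2 or 3, log2 4.51 to 5.69, adjusted p = 0.0593 to 0.204). They were the 1 called gene of each list with all arrays (3.45% and 7.14%, where 3.95% of all genes were called). Of the blood genes 0 passed in limma, with 3 (14.3%) at an unadjusted p under 0.05, where all genes gave 17.3%. Without replicate 3 the calls were TIMP1, an inhibitor of matrix proteases, among cumulus and granulosa genes (5.72, adjusted p = 0.0188) and S100A12, a calcium-binding protein of granulocytes, among blood genes (-3.36, adjusted p = 0.0405). STAR (log2 -1.10, adjusted p = 0.441) and ODF2 (log2 0.93, adjusted p = 0.474) lost the call at the common floor.

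The same stages in adult embryos, which share no arrays with these, moved in the same direction for most calls. There 512 probe sets passed (2.13%), 303 higher (1.26%) and 209 lower (0.870%). Of the 344 rises 334 (97.1%) had the same sign in adult embryos, where 52.2% of all probe sets were higher in blastocysts. Of the 219 falls 194 (88.6%) had the same sign, where 47.8% of all probe sets were lower. Fewer passed in both: 118 rises, which are 34.3% of the prepubertal and 38.9% of the 303 adult rises, and 69 falls, which are 31.5% and 33.0% of the 209 adult falls. In 0 cases did a probe set pass in opposite directions. BMP15 (-7.73, adjusted p = 0.000104), KRT18 (8.08, adjusted p = 1.74e-05) and FN1 (8.70, adjusted p = 1.22e-06) were among those that passed in adult embryos as well. Several respiratory and ribosomal genes, chosen after their values were seen, gave smaller adult values: COX5A 3.69 (adjusted p = 0.171), COX7A2 1.32 (adjusted p = 0.726), NDUFB3 0.65 (adjusted p = 0.943), RPL27A 1.17 (adjusted p = 0.823), RPS15 1.28 (adjusted p = 0.839) and EEF1G 1.81 (adjusted p = 0.743). The prepubertal values for RPL27A were 763, 1269 and 30.3 and 22157, 22259 and 27964 (log2 6.06, SE 1.10, adjusted p = 5.29e-05; 4.58 without replicate 3). Over adult genes 290 passed (3.17%), 168 higher (1.84%) and 122 lower (1.33%). Of these, 0 of 39 large subunit genes rose and 1 fell, with a list median 1.94 above all genes, and 2 of 37 complex I genes rose, with a median 1.53 above.

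These gaps between donor groups did not pass the test of the difference itself. For the stage difference in prepubertal minus adult embryos limma called 0 of 24016 probe sets, with all arrays and without replicate 3. At an unadjusted p of 0.05 there were 1307 (5.44%), and 1211 (5.04%) without replicate 3. COX7A2 differed by 4.29 between donor groups (adjusted p = 0.78), NDUFB3 by 5.05 (adjusted p = 0.78) and RPS15 by 5.85 (adjusted p = 0.766). The 5 genes with the smallest p were DYNLT3 (-9.27, adjusted p = 0.241), SF3A2 (8.93, adjusted p = 0.251), STK38 (8.52, adjusted p = 0.251), GART (8.03, adjusted p = 0.271) and FASTKD2 (7.45, adjusted p = 0.575). SF3A2, a splicing factor, read 10.5, 92.2 and 50.8 on the 8-16-cell arrays and 7695, 20996 and 167 on the blastocyst arrays in prepubertal embryos, where it rose (log2 5.75, SE 1.53, adjusted p = 0.0169), and its adult difference was -3.18 (adjusted p = 0.393). DYNLT3, a dynein light chain, read 9600.2, 5551 and 93738 against 918, 105 and 210.3 and passed with replicate 3 only (-5.86, adjusted p = 0.0098; -4.63, adjusted p = 0.115 without it). Single arrays ended both calls: SF3A2 (without 8-16-cell replicate 1 or blastocyst replicate 1 or 2, log2 4.36 to 5.19, adjusted p = 0.0809 to 0.237), DYNLT3 (without 8-16-cell replicate 3 or blastocyst replicate 2 or 3, log2 -4.63 to -5.67, adjusted p = 0.0589 to 0.115). SF3A2 (log2 1.95, adjusted p = 0.24) lost the call at the common floor.

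**Figure D5:**
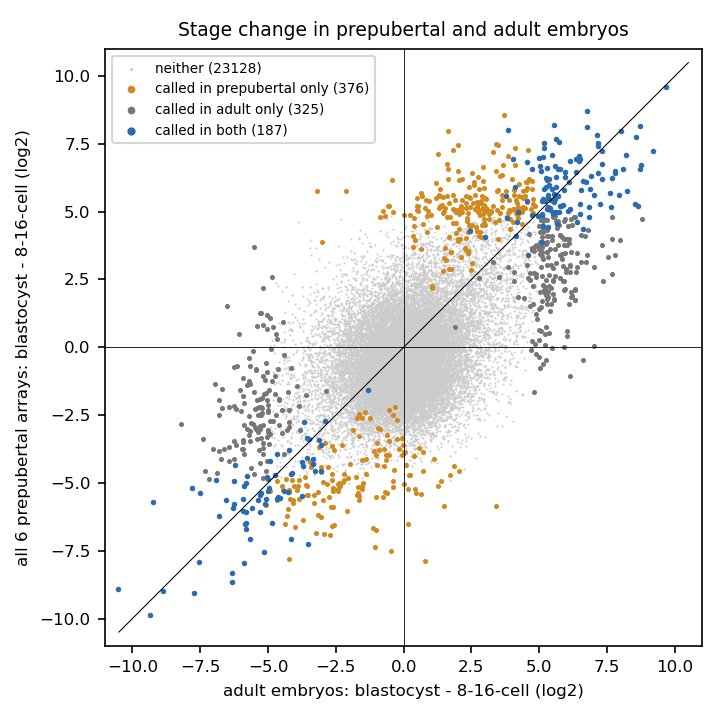
Each point is 1 of 24016 probe sets, with the blastocyst minus 8-16-cell log2 difference in adult embryos on the x axis and in prepubertal embryos on the y axis. Blue points passed in both donor groups (118 higher and 69 lower), orange points in prepubertal embryos only and dark grey points in adult embryos only; the line marks equality.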

How the data were processed

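Per the labels, total RNA of each embryo pool was amplified with the WT-Ovation Pico kit and hybridized as biotin-labelled cDNA to an Affymetrix bovine array. The deposited values are linear signal intensities that the authors made with MAS5, per the submitters' processing notes; no label names its version or settings. The mean of each array after trimming 2% at either end was 499.76 to 499.85, which is a scaling to a target of 500.

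Probe sets were named through the platform annotation, updated by gene identifier: 13292 named 1 gene, 86 several and 10638 none. Gene values are those of the probe set with the highest mean over the 12 arrays (9155 genes). log2(signal + 16) was fitted in R 4.3.3 by limma 3.58.1, using lmFit and a trended eBayes, with a mean for each of 4 groups, 8 residual degrees of freedom (prior 195.66) and 7 (prior 122.58) without 8-16-cell replicate 3. The prior far exceeds the residual degrees of freedom, so a probe set's own spread counts for little. The test was two-sided, with Benjamini-Hochberg adjustment over 24016 probe sets and a threshold of 0.05. The median SE was 1.30, or 1.39 without replicate 3, and the number of arrays limits the precision. Background was the highest of 27 Bacillus subtilis control probe sets; it is too high if those sequences were spiked in, which no label says. Counts of probe sets above background were compared between stages by exact permutation tests. The scripts were tested on simulated data.

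The comparison, its gene lists (33) and the rules were chosen with earlier results of these data known. Genes described are, by rule, the 20 largest differences per direction that passed with and without replicate 3 and did not overlap, up to 6 called members of each list (or the 2 smallest p), the 5 smallest p of the donor difference, and fixed stage markers. Others in the text (among them ENPEP, RPL8, RPL22, RPS27, COX4I1, SDHA, TPM1, MSN, MYL12A, LAMP2, CD9, HDAC1, KDM1A, SCD, STAT3, CLIC1, TIMP1 and GATA6) were chosen after their values were seen. No label says whether the numbering of replicates pairs the pools, and the main fit left them unpaired. No sequence or coordinate is given.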

Additional observations from a re-analysis of the deposited data

Results flagged for a closer look

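The change in the number of probe sets above background from the 8-16-cell stage to the blastocyst differed between donor groups. It was 4701 in prepubertal and 7.33 in adult embryos, a difference of 4694 (exact test permuting donor labels within stage, 400 permutations, p = 0.005, the smallest they can give). Without prepubertal 8-16-cell replicate 3 the difference was 3507 (p = 0.01, 200 permutations). Above a fixed signal of 2000 it was 347 (exact permutation p = 0.315), and 93.8 without replicate 3 (p = 0.5). With the limit at 500 it was -1177 (exact permutation p = 0.72), and 238 without replicate 3 (p = 0.675), so its sign rested on 1 array. The limit for background is the array's own. It was 356, 424 and 1664 on the prepubertal 8-16-cell arrays and 172, 196 and 254 on the prepubertal blastocyst arrays. On the adult arrays it was 122, 248 and 251 at the 8-16-cell stage and 187, 224 and 282 in blastocysts. Each prepubertal 8-16-cell array thus had a higher limit than any adult array or prepubertal blastocyst array. The part of this limit in the difference between donor groups was not tested.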

How the results depend on the processing

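The count of 563 probe sets was 490 to 682 under other pseudocounts (1 and 64), without dim probe sets, with quantile normalization or median centring, in the 6 prepubertal arrays alone, without the trend, with robust estimation and with array weights. It was 298 with all signals raised to the highest background, a fit that leaves out probe sets at that floor on every array. Leaving out 1 array at a time gave 272 to 611, lowest without single prepubertal blastocyst arrays. Deviations of same-numbered pools correlated at r = 0.044, -0.012 and 0.049. With 3 pools per stage this cannot decide whether the number pairs them, and no label says. With the replicate number as a block there were 582 probe sets. Without 8-16-cell replicate 3 there were 352 with the block and 535 without it. With all arrays 0 of the named genes lost their call under the block. The test of the donor difference gave 0 to 1 probe sets when 1 array was left out, 1 without prepubertal 8-16-cell replicate 2, adult blastocyst replicate 2 or prepubertal blastocyst replicate 2, and 0 under the other settings run. With a fixed signal of 500 the difference in probe sets above background was -766 where it was 4701, and 649 without 8-16-cell replicate 3. Of 121 named genes that passed, 52 kept call and direction under every alternative, 69 lost the call under at least 1 and 0 reversed. Under the floor 45 were lost, and 24 without 8-16-cell replicate 3. Without blastocyst replicates 1, 2 and 3 the losses were 28, 33 and 34. Without the trend 19 were lost, among them the bright genes KLF4, ITGB5, TRA2B and HMGB2, and with array weights 17. EIF1 and SRSF3 were lost with quantile normalization, median centring, the 6 prepubertal arrays alone and no trend. Of 27 that did not pass, 7 passed under some alternative. SOX2 (0.19) ran from -0.16 to 0.58 and NLRP5 (-0.27) from -1.32 to 0.68 when 1 array was left out, and NLRP5 was 0.01 with quantile normalization; neither passed. Medians of the gene lists relative to all genes kept their sign under quantile normalization; centring for the lists was added after seeing the data. Without replicate 3 the spliceosome list went from 0.81 to -0.01 and the cumulus and granulosa list from -0.02 to 0.64. With 3 pools per stage and 8-16-cell backgrounds up to 1664, low signals carry little information.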

Other observations

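Some of the largest differences were of genes outside the lists. TMEM258, of the oligosaccharyltransferase complex, read 7.32, 11.6 and 47.0 on the 8-16-cell arrays and 2728, 8560.3 and 28160.3 on the blastocyst arrays, at least 13.8-fold higher (22.4-fold without 8-16-cell replicate 3; adjusted p = 0.000115), and did not pass in adult embryos (1.62, adjusted p = 0.82). TSPAN6, a tetraspanin, was at least 11.2-fold higher (18.2-fold without 8-16-cell replicate 3; adjusted p = 0.000213), and its second probe set showed -0.97. SEZ6, known for its role in neurons, read 30948, 533 and 1503 on the 8-16-cell arrays and 3.74, 17.0 and 17.1 on the blastocyst arrays, at least 14.3-fold lower (adjusted p = 0.000961), against -1.02 in adult embryos (adjusted p = 0.905).

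TECTB, which encodes a tectorin of the inner ear matrix, read 12511, 28801 and 493 on the 8-16-cell arrays and 7.87, 83.5 and 165 on the blastocyst arrays, a log2 difference of -6.24 (adjusted p = 0.00371) and of -7.98 without 8-16-cell replicate 3. In adult embryos it differed by -6.83 (adjusted p = 0.00141). Its call was lost without 8-16-cell replicate 2 (-5.07, adjusted p = 0.0759) and without blastocyst replicate 1 (-5.41, adjusted p = 0.0659). With every signal raised to the highest background of any array the calls of TMEM258 (2.38, adjusted p = 0.0837), TSPAN6 (2.08, adjusted p = 0.0514), SEZ6 (-1.40, adjusted p = 0.441) and TECTB (-2.33, adjusted p = 0.206) were lost.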
